A study of Mus musculus with 4 samples.

Results

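The genes described here are 3 subunits of the transcription factor NF-kappaB (Nfkb2, Rel and Relb), 5 of its inhibitors and regulators (Nfkbia, Nfkbiz, Bcl3, Tnfaip3 and Birc3) and the adhesion molecules Icam1 and Vcam1, which are among its target genes. They were chosen by symbol, with earlier results of these data known. Every probe set that the platform annotation assigned to exactly 1 gene with one of these symbols was used. This gave 21 probe sets for 10 genes out of 45037 non-control probe sets and 18193 genes. RNA came from freshly sorted basal cells of the mammary gland, a population that the labels describe as stem cells, myoepithelial cells and myoepithelial progenitors. A single array was run for each of 4 samples, 2 after feeding with soy protein isolate (SPI) and 2 after feeding with casein (CAS), the control diet. All 4 samples carried the same transgene and background, MMTV-Wnt1-Transgenic (Wnt1-Tg) in the strain B66SJL/HEV/J (mixed background), so both diets were seen only in mice whose mammary gland is driven by Wnt1 from the mouse mammary tumour virus promoter. The labels give neither an age nor a duration of the diet, and they do not say whether the samples of a diet came from separate animals or from pools. The spread behind every p-value is thus that of these samples alone and may be technical.

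NF-kappaB is a family of dimeric transcription factors held in the cytoplasm by IkappaB proteins until a signal such as a cytokine or a microbial product activates the IkappaB kinases (IKK), which mark the inhibitor for destruction. The freed dimers enter the nucleus and raise inflammatory genes, survival genes and adhesion molecules, and also the genes of their own inhibitors, so that Nfkbia and Tnfaip3 are commonly read as feedback targets of the pathway. In the mammary gland, NF-kappaB takes part in the growth of the epithelium and in its involution after lactation.

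The deposited values are log2 expression values from which the median of the 4 arrays had been taken off for every probe set, so they carry differences between arrays and no level. The 2 middle values of each probe set are mirror images of each other by this construction. Values near 0 on such a scale mean only that an array lay near the middle of the 4. A coarse class of level could still be read off the digits, and 11 of the 21 probe sets fell in the class 8 to 16 and 10 in the class 4 to 8 on the log2 scale. All 6 actin and Gapdh control probe sets were in the upper class, against 1 of 44 for olfactory receptors. Of 102 ribosomal protein probe sets, 69 were in that class and 89 at 4 or above. Of the 44 for olfactory receptors, 9 were at 4 or above, so a level of 4 does not establish expression. Of 31 probe sets of basal and myoepithelial markers, 29 were at 4 or above and 19 in the class 8 to 16.

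Of the 21 probe sets, 5 were lower in SPI past the threshold of 0.05 on the limma adjusted p. The 5 came from the inhibitors Nfkbia and Tnfaip3, the nuclear IkappaB protein Bcl3 and the adhesion molecule Vcam1. The adjustment was that of Benjamini and Hochberg over all 45037 probe sets. Over all probe sets 1.25% were lower by this criterion and 0.249% were higher, and 0 of the 21 were higher. Both SPI arrays lay below both CAS arrays in 17 of the 21, against 20.5% of all probe sets, and both lay above in 0, against 27.9%. At an unadjusted p under 0.05, 16 of the 21 were lower, against 8.35% of all probe sets. The median difference of the 21 was -0.34 on the log2 scale, where that of all probe sets was 0.023. Arrays were also centred on the hybridization controls, which moved the median of all probe sets to 0.18. There the same 5 passed, with limma adjusted p between 0.0300 and 0.0499. Calls over all probe sets were then 2261 against 676, with 1557 higher against 112, and more calls ease the adjusted threshold. At an unadjusted p under 0.05, 8 of the 21 were lower with this centring. The median of the 21 was -0.19, while Rel and both Birc3 probe sets turned to values above 0. Probe sets of 1 gene measure the same transcripts, so the 21 are not independent. The list was chosen with earlier results of these data known, so these shares are a description and carry no test. Calls of 2 arrays against 2 rest on the spread shared over all probe sets. With the spread of each probe set alone, by an ordinary t statistic, 12 of the 21 had an unadjusted p under 0.05 and 0 passed after adjustment. An exact permutation of the arrays cannot give a two-sided p below 0.333.

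**Figure D1:**
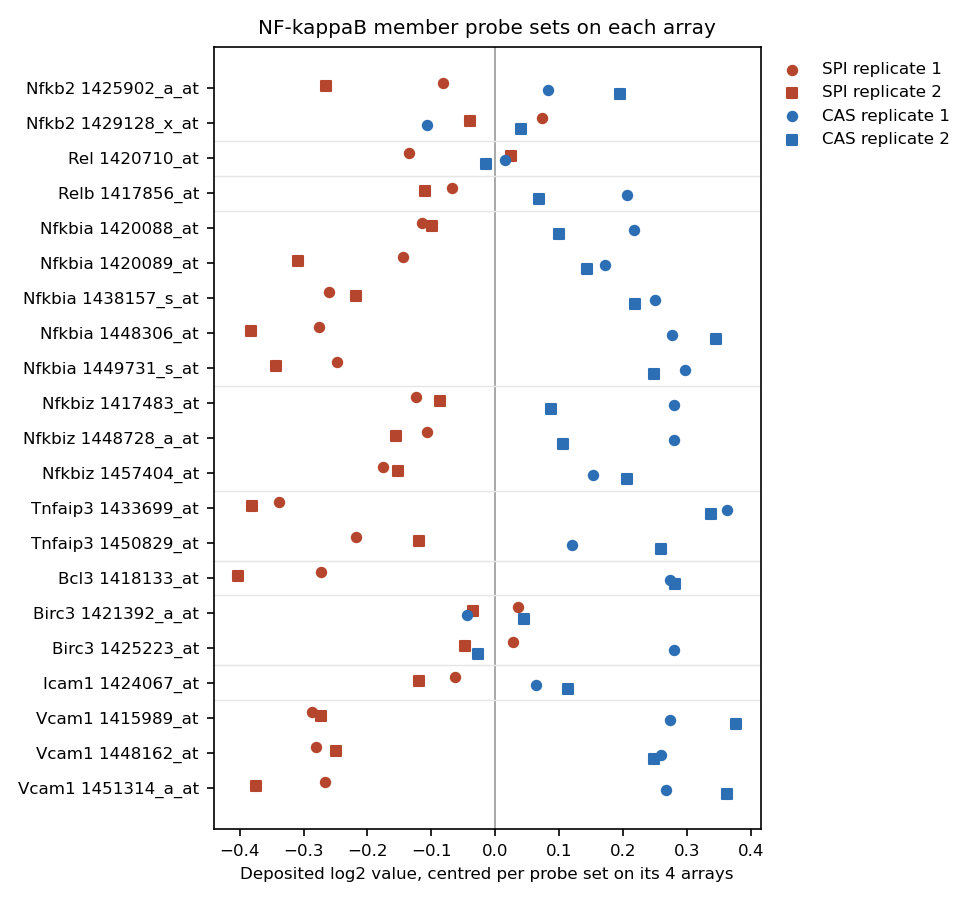
Deposited log2 value (x axis, centred per probe set on its 4 arrays) of each member probe set (rows) on the SPI arrays (red) and the CAS arrays (blue), with circles for replicate 1 and squares for replicate 2. The SPI and CAS points are apart in 17 of 21 probe sets and overlap in 1 Nfkb2 probe set, in Rel and in both Birc3 probe sets.

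Among the subunits no probe set passed the test. Nfkb2 encodes p100, which is cut to the p52 subunit of the alternative pathway. Its probe set 1425902_a_at was at -0.082 and -0.27 on the SPI arrays, against 0.082 and 0.19 on the CAS arrays. The groups did not overlap, and the difference was -0.31 on the log2 scale (SE 0.099, interval -0.56 to -0.060 at 95% from 2 arrays in each diet, adjusted p by limma = 0.21). The other Nfkb2 probe set, 1429128_x_at, whose suffix marks probes that can bind other transcripts, was at 0.074 and -0.039 in SPI against -0.11 and 0.039 in CAS. Here the arrays of the diets were interleaved, with a difference of 0.051 (-0.18 to 0.29), so the probe sets of this gene disagreed in sign.

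Relb, the partner of p52 in the alternative pathway, was at -0.068 and -0.11 in SPI against 0.21 and 0.068 in CAS. Both SPI arrays were the lower ones, by -0.23 on the log2 scale (-0.44 to -0.0091, limma adjusted p = 0.267). Rel, the subunit c-Rel known best from lymphocytes, was at -0.13 and 0.024 in SPI against 0.015 and -0.015 in CAS. Its SPI arrays lay on either side of the CAS arrays, and its difference of -0.055 had an interval of -0.28 to 0.17.

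The inhibitors of the classical pathway were among the members that fell. Nfkbia encodes IkappaB-alpha, which holds RelA dimers in the cytoplasm and is itself induced by them. Its probe set 1448306_at was at -0.28 and -0.38 on the SPI arrays, against 0.28 and 0.35 on the CAS arrays. The diets were well apart. This probe set was 1.56-fold lower with SPI (95% interval 1.35 to 1.80 from 2 arrays in each diet, adjusted p by limma = 0.0408). The probe set 1449731_s_at was at -0.25 and -0.34 in SPI against 0.30 and 0.25 in CAS, a difference of -0.57 that missed the threshold (limma adjusted p = 0.0503). The other 3 Nfkbia probe sets were at -0.47, -0.38 and -0.27, with limma adjusted p between 0.0642 and 0.201. In all 5 the SPI arrays lay below the CAS arrays. The 5 probe sets differed in size but not in direction, and their mean, fitted with 1 value per gene, was lower by -0.47 on the log2 scale (limma adjusted p = 0.0251 over 18193 genes). Without SPI replicate 1, SPI replicate 2, CAS replicate 1 or CAS replicate 2 in turn, the difference of 1448306_at was -0.69, -0.59, -0.67 or -0.60, and its limma adjusted p was 0.228, 0.331, 0.291 or 0.313.

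Tnfaip3 encodes A20, an enzyme that edits ubiquitin chains and so ends signalling from the TNF and Toll-like receptors. Its probe set 1433699_at was at -0.34 and -0.38 on the SPI arrays, against 0.36 and 0.34 on the CAS arrays. This was the largest difference among the 21, 1.64-fold lower in SPI (1.44 to 1.86 from 2 arrays in each diet, adjusted p by limma = 0.0259). Replicates of each diet lay close together. The other Tnfaip3 probe set, 1450829_at, in the higher level class, was at -0.22 and -0.12 in SPI against 0.12 and 0.26 in CAS. Its difference of -0.36 had the same direction and did not pass (limma adjusted p = 0.153). As 1 value per gene Tnfaip3 was at -0.53 on the log2 scale (-0.70 to -0.37, limma adjusted p = 0.0170 over 18193 genes). Without SPI replicate 1, SPI replicate 2, CAS replicate 1 or CAS replicate 2 in turn, the difference of 1433699_at was -0.73, -0.69, -0.70 or -0.72, and its limma adjusted p was 0.202, 0.280, 0.291 or 0.273.

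Bcl3 is an IkappaB protein of the nucleus that binds p50 and p52 dimers and can turn them into activators. It was at -0.27 and -0.40 on the SPI arrays, against 0.27 and 0.28 on the CAS arrays. The CAS arrays lay close together and above both SPI arrays, and Bcl3 was 1.53-fold lower in SPI (1.32 to 1.77 from 2 arrays in each diet, adjusted p by limma = 0.0451). This is the call nearest to the threshold. It was missed with a robust prior variance (limma adjusted p = 0.0501) and among probe sets designed against 1 transcript (limma adjusted p = 0.0502). Without SPI replicate 1, SPI replicate 2, CAS replicate 1 or CAS replicate 2 in turn, the difference was -0.68, -0.55, -0.62 or -0.61, and the limma adjusted p was 0.219, 0.335, 0.296 or 0.319.

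Nfkbiz, another nuclear IkappaB protein, which in mice is needed to induce Il6 and other late inflammatory genes, had 3 probe sets, with log2 differences of -0.29, -0.32 and -0.34. The last of these, 1457404_at, was at -0.18 and -0.15 in SPI against 0.15 and 0.21 in CAS. In all 3 the SPI arrays lay below the CAS arrays, and none passed the test (limma adjusted p between 0.12 and 0.22). Fitted as 1 value per gene the difference was -0.32 (limma adjusted p = 0.0766).

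Birc3, the ubiquitin ligase cIAP2, which joins the TNF receptor complex and restrains the alternative pathway, did not pass the test. Its probe set 1421392_a_at was at 0.035 and -0.035 in SPI against -0.045 and 0.045 in CAS, with a difference of -7.63e-05 and a 95% interval of -0.21 to 0.21. Its other probe set, 1425223_at, was at 0.027 and -0.048 in SPI against 0.28 and -0.027 in CAS, where a single CAS array stood above the other three. The interval of its difference ran from -0.45 to 0.18.

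The adhesion molecules gave unequal results. Vcam1, which binds the integrin alpha4 beta1 of leukocytes and is found on activated endothelium and on stromal cells, had 3 probe sets. The probe set 1415989_at was at -0.29 and -0.27 on the SPI arrays, against 0.27 and 0.38 on the CAS arrays, and was 1.52-fold lower in SPI (1.32 to 1.75 from 2 arrays in each diet, adjusted p by limma = 0.0417). The probe set 1451314_a_at was at -0.27 and -0.37 in SPI against 0.27 and 0.36 in CAS, or 1.55-fold lower (1.34 to 1.80, limma adjusted p = 0.0445). The remaining Vcam1 probe set, 1448162_at, was at -0.28 and -0.25 in SPI against 0.26 and 0.25 in CAS, a difference of -0.52 just outside the threshold (limma adjusted p = 0.0504). All 3 kept the diets apart by a similar amount, and as 1 value per gene Vcam1 was at -0.59 on the log2 scale (-0.75 to -0.42, limma adjusted p = 0.0136 over 18193 genes). Without SPI replicate 1, SPI replicate 2, CAS replicate 1 or CAS replicate 2 in turn, 1415989_at was at -0.60, -0.61, -0.66 or -0.55 and 1451314_a_at at -0.69, -0.58, -0.68 or -0.59, with limma adjusted p between 0.235 and 0.348.

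Icam1, the ligand of the leukocyte integrins LFA-1 and Mac-1, was at -0.063 and -0.12 on the SPI arrays, against 0.063 and 0.11 on the CAS arrays. The diets did not overlap, but the difference was small, -0.18 on the log2 scale (-0.37 to 0.013, limma adjusted p = 0.309). The difference between Vcam1 and Icam1 in their response to diet was not tested.

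**Figure D2:**
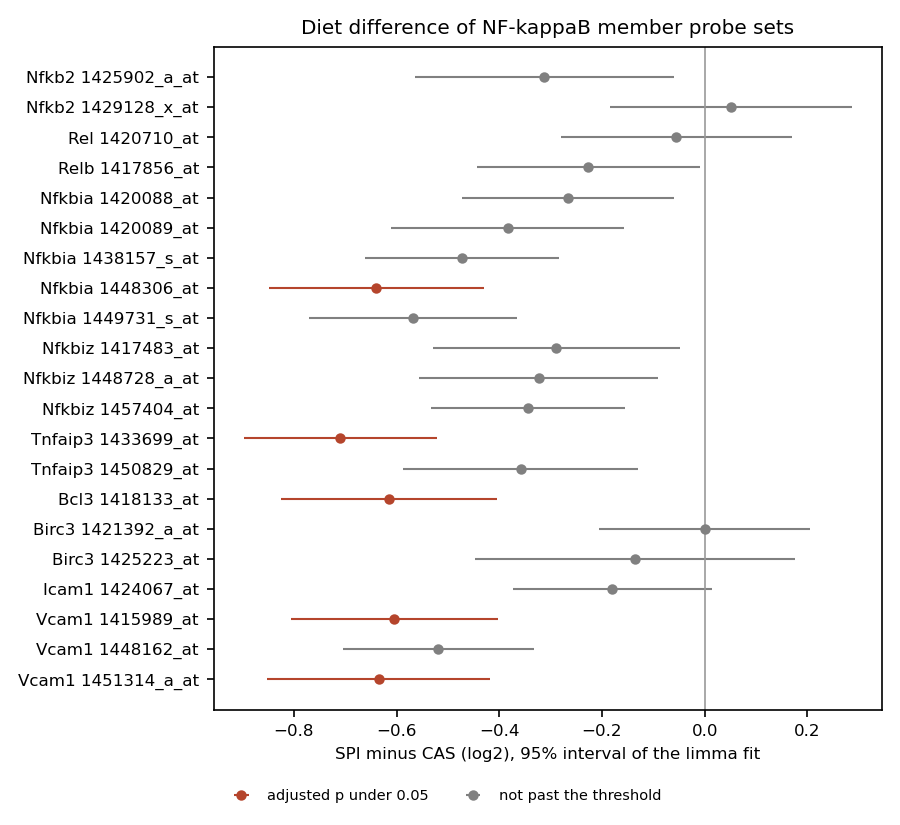
SPI minus CAS on the log2 scale (x axis) with the 95% interval of the limma fit for each member probe set (rows), in red where the adjusted p was under 0.05. The 5 red points lie between -0.60 and -0.71, and only the Nfkb2 probe set 1429128_x_at lies above 0, by 0.051.

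Near its start, a gene controlled by NF-kappaB often holds the kappaB site to which the dimers bind. The 250 bases before the RefSeq starts in GRCm38.p6 were searched on both strands for the kappaB consensus, the degenerate motif known by that name. Starts were listed for 7 of the 10 members, and 4 of these, Tnfaip3, Rel, Nfkbia and Nfkb2, held the consensus before at least 1 start, as did 8.23% of all 26994 genes. The stretches below are those of Tnfaip3, Nfkbia and Bcl3, each with a probe set that fell, and of 2 subunits with none that did. The kappaB consensus is in capitals.
Tnfaip3 (chr10:19015411-19015660, minus strand): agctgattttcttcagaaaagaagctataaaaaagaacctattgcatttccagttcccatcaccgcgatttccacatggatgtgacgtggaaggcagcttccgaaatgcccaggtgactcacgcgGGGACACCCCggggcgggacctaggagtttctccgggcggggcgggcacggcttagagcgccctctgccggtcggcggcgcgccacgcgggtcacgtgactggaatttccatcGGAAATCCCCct
Nfkbia (chr12:55492648-55492897, minus strand): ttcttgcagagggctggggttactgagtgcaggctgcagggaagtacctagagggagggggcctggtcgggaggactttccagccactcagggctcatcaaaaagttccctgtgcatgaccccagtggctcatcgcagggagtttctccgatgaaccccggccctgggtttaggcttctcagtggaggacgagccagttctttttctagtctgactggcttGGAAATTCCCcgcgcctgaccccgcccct
Bcl3 (chr7:19822756-19823005, minus strand): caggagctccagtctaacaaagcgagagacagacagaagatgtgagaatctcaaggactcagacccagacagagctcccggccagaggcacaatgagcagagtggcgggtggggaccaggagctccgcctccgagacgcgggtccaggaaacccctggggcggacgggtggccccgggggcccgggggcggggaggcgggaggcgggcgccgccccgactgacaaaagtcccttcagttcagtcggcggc
Nfkb2 (chr19:46304487-46304736, plus strand): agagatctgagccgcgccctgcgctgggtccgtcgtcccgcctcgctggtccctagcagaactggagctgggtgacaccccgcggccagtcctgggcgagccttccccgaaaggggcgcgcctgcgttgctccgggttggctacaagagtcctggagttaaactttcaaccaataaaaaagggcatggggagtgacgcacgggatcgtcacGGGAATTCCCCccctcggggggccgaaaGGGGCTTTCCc
Rel (chr11:23770970-23771219, minus strand): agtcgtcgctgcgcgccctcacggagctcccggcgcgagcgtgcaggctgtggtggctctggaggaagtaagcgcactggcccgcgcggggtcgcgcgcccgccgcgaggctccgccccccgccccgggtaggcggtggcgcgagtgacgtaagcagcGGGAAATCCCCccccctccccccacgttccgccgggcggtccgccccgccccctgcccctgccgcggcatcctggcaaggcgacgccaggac
Nfkbia held its match 29 to 20 bases before the start. Tnfaip3 held matches 125 to 116 and 12 to 3 bases before the start shown, and its other listed start held 0. Bcl3, which fell, held none in this window, while Nfkb2 and Rel, of which no probe set passed, held overlapping matches on both strands. A match describes the letters of the window and does not establish binding.

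Of 182 probe sets in 4 further lists of the pathway, 5 were lower past the threshold and 0 higher. Over all probe sets 1.5% passed in either direction. At an unadjusted p under 0.05 in limma there were 31 of the 182, 22 of them lower, beside 8006 and 3761 of all 45037. For these lists and for the marker lists, the value given for a gene is that of its probe set with the smallest p, and other probe sets of the gene can differ. Of 6 probe sets for the other subunits and IkappaB proteins (4 genes measured), 0 passed in limma and 0 had an unadjusted limma p under 0.05. By an ordinary t statistic 2 of the 6 had an unadjusted p under 0.05, 2 of them lower. After adjustment that statistic called only 1 of 45027 probe sets, so its lack of calls in any list decides nothing. Rela, the main activating subunit of the classical pathway, was at -0.023 and -0.017 in SPI against 0.017 and 0.024 in CAS, a difference of -0.040. The IkappaB genes Nfkbib (-0.17, with its other probe set at 0.18), Nfkbie (-0.19, with its other probe set at -0.044) and Nfkbid (0.032) did not pass either.

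Of 87 probe sets for IKK kinases, adaptors and ubiquitin enzymes (35 genes measured), 0 passed in limma, beside 1.5% of all probe sets. By an ordinary t statistic 10 of the 87 had an unadjusted p under 0.05, 5 of them lower. In limma an unadjusted p under 0.05 was seen for 8, 3 of them lower. Over all 45037 probe sets it was seen for 8006, 3761 of them lower. The kinase Ikbkb, whose product phosphorylates IkappaB, was at -0.42 by the probe set 1445141_at (limma adjusted p = 0.0837), while its other 4 probe sets lay between -0.19 and 0.095. The deubiquitinase Otud7b was at -0.32, the adaptor Traf5 at 0.44 and the kinase Tbk1 at 0.26. The 5 probe sets of the adaptor Traf6 disagreed in sign, with 1443288_at at 0.32, a pair at 0.16 each, 1446940_at at -0.089 and 1421376_at at -0.18. The medians were -0.042 for the subunits and IkappaB proteins and -0.032 for this list, close to the 0.023 of all probe sets.

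Of 43 probe sets for survival and inflammatory targets (20 genes measured), 3 were lower in SPI and 0 higher, or 6.98%, where 1.5% of all probe sets changed in either direction. These were the neutrophil attractant Cxcl5, 2.72-fold lower (2.21 to 3.36, limma adjusted p = 0.0156), Il6, 2.30-fold lower (1.86 to 2.84, limma adjusted p = 0.024), and Tnf, 2.15-fold lower (1.65 to 2.80, limma adjusted p = 0.0454). The Cxcl5 probe set was in the level class 2 to 4, which does not establish expression. Those of Il6 and Tnf were in the class 8 to 16. Tnf, itself an activator of NF-kappaB, was at -0.41 and -0.61 on the SPI arrays, against 0.78 and 0.41 on the CAS arrays. At an unadjusted p under 0.05, 9 of the 43 were lower and 4 higher, beside 3761 and 4245 of all 45037 probe sets. The 4 were probe sets of Cd83 (0.28), Fas (0.28), Cflar (0.21) and Cxcl2 (0.21). They did not pass after adjustment and were named after their values were seen. The chemokine Cxcl1 (-0.26) did not pass. The probe sets of the prostaglandin synthase Ptgs2 disagreed, with 1417263_at at -0.63 (limma adjusted p = 0.0888) and 1417262_at, in the higher level class, at 0.12 with both SPI arrays above both CAS arrays. The median of the list was -0.016. The list holds cytokines and chemokines, which the series title names.

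Of 46 probe sets for leukocyte adhesion molecules and their ligands (21 genes measured), 2 were lower and 0 higher. This is 4.35%, beside 1.5% of all probe sets in either direction. At an unadjusted p under 0.05, 10 of the 46 were lower and 0 higher, beside 3761 and 4245 of all 45037 probe sets. The 2 called probe sets were of Selp. This gene encodes P-selectin of endothelium and platelets, on which leukocytes roll. By the probe set 1440173_x_at it was at -0.58 and -0.76 in SPI against 0.58 and 0.61 in CAS, or 2.40-fold lower (2.04 to 2.83, limma adjusted p = 0.0119). The suffix of this probe set marks probes that can bind other transcripts. By 1449906_at Selp was 2.10-fold lower (1.62 to 2.72, limma adjusted p = 0.0485), and by 1420558_at, at -1.10, it did not pass. E-selectin (Sele, -0.73), Alcam (-0.43), the junction protein F11r (-0.29) and Pecam1 (-0.47) were at values below 0 that did not pass. The list median was -0.055. After centring on the hybridization controls, medians of the 4 pathway lists turned to values between 0.10 and 0.14, beside the 0.18 of all probe sets. No call on Cxcl5, Il6, Tnf or Selp held in limma with any 1 array left out, which leaves 1 array in a diet. Over the 182 probe sets of the 4 pathway lists, the median was then -0.027 without SPI replicate 1 and -0.039 without SPI replicate 2. It was -0.00915 without CAS replicate 1 and -0.045 without CAS replicate 2.

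**Figure D3:**
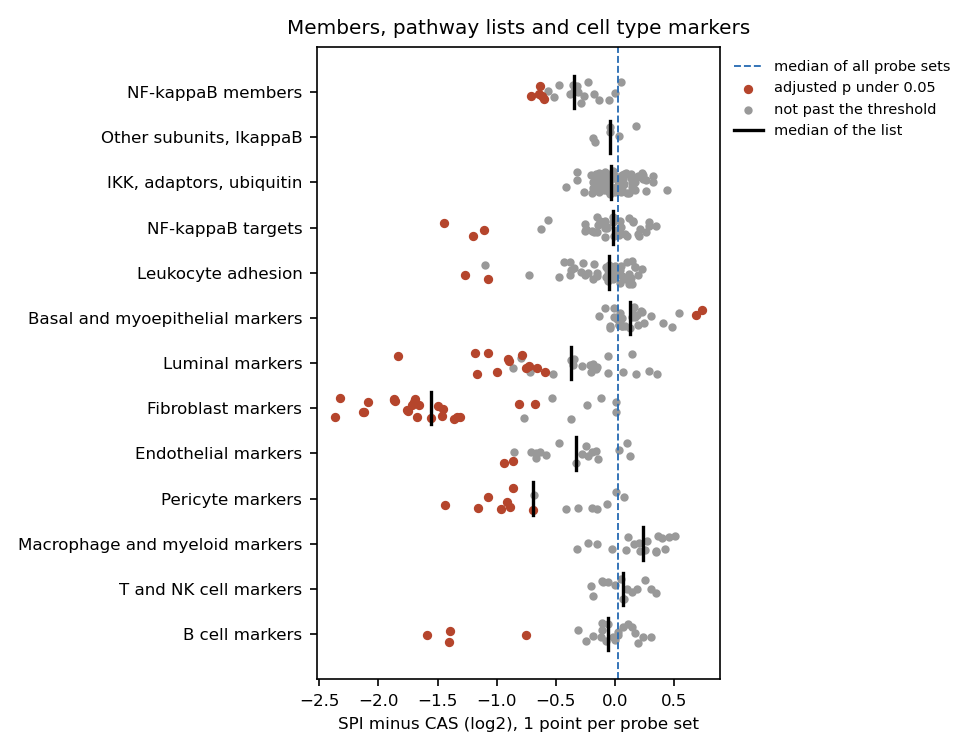
SPI minus CAS on the log2 scale (x axis) for each probe set (points) of the NF-kappaB members, the pathway lists and the cell type marker lists (rows), in red where the limma adjusted p was under 0.05, with each list's median as a black bar. The members' median of -0.34 lies near that of the luminal and endothelial markers, and the fibroblast markers reach down to -2.36.

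Markers of other cell types moved on the same arrays, and their part in the fall of the members was not tested. In sorted bulk RNA, fewer cells of a type and less RNA per cell cannot be told apart. Past the threshold, 1.25% of all probe sets fell and 0.249% rose, the shares beside which the marker counts stand. Of 31 fibroblast marker probe sets 24 fell in SPI and 0 rose. Their medians were -0.71 and -0.77 on the SPI arrays against 0.71 and 0.80 on the CAS arrays. Lum and Fmod were the leading genes of that list, at -2.32 and -2.09. Of 16 pericyte marker probe sets 8 fell, from 3 of the 8 genes measured, Rgs5 and Notch3 first (-1.08 and -0.97). The medians were -0.32 and -0.38 in SPI against 0.39 and 0.25 in CAS. Of 19 endothelial marker probe sets 2 fell, those of Cdh5 and Plvap (-0.94 and -0.86). At an unadjusted p under 0.05 in limma, 11 of the 19 were lower and 0 higher. The endothelial medians were -0.074 and -0.26 in SPI against 0.19 and 0.22 in CAS. Vcam1 is known in fibroblasts, pericytes and endothelium as well as in epithelium.

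Of 33 luminal marker probe sets 12 fell and 0 rose, among them Aldh1a3 (-1.07) and Cldn3 (-0.91), with medians of -0.23 and -0.25 in SPI against 0.26 and 0.20 in CAS. Of 31 basal and myoepithelial probe sets 2 rose and 0 fell, those of Oxtr and Krt15 (0.68 and 0.73), with medians of 0.045 and 0.063 in SPI against -0.069 and -0.030 in CAS. Of 18 macrophage and myeloid probe sets 0 passed in limma and 8 had an unadjusted p under 0.05, 7 of them higher, with C1qc at 0.42 and Cd14 at -0.32. The medians of that list were 0.033 and 0.12 in SPI against -0.15 and -0.043 in CAS. Of 15 T and NK cell probe sets 0 passed in limma, with 2 at an unadjusted p under 0.05 and Il7r and Cd8a at 0.25 and 0.31, and the medians were 0.061 and 0.018 in SPI against -0.060 and -0.017 in CAS. Of 23 B cell probe sets 4 fell, those of Ighm (-1.41 by its first probe set) and Jchain (-1.40), with medians of -0.050 and -0.0098 in SPI against -0.024 and 0.032 in CAS.

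The genes outside the members whose values over the 4 arrays were nearest to each called probe set were found by Euclidean distance on the log2 scale, after the mean of the 4 arrays was taken off. Nearest to Tnfaip3 were Sparcl1 (0.011), Slfn8 (0.024) and Spon1 (0.040). Nearest to Nfkbia were Adamts12 (0.024), Bnipl (0.028) and Wnt5b (0.028). Nearest to Bcl3 were Clu (0.011), Tlr4 (0.029) and Naaladl2 (0.038). Nearest to Vcam1 were Krt4 (0.030), Rbp7 (0.037) and Fxyd6 (0.039) by 1415989_at, and Bnipl (0.019), Bicc1 (0.023) and Slc44a3 (0.031) by 1451314_a_at. The distance uses the diet difference itself and 4 arrays, so these names are a description and carry no test.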

How the data were processed

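Expression was measured on 4 Affymetrix arrays of sorted mammary basal cells, 2 per diet, grouped by the sample titles. The authors deposited log2 values made with GCOS and RMA, per the submitters' processing notes; for versions and genome build, the sources used here give nothing. The median of each row of the table was 0 to within 5e-07, a centring that no label records. Of 45101 probe sets, 64 were controls and were left out. Of the other 45037, 34945 had exactly 1 gene, 932 several and 9160 were not listed. Symbols were updated through gene IDs with the RefSeq table of GRCm38.p6, which matched 34741.

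The level class follows the numerical step of the digits, and a probe set can fall by chance in a class above its own. All non-control probe sets were fitted by lmFit and eBayes of limma 3.58.1 (R 4.3.3), as SPI minus CAS with two-sided p-values and without a block, with 2 residual and 3.12 prior degrees of freedom and Benjamini-Hochberg adjustment at 0.05. The fit was tested on simulated data. Probe sets rather than genes were the unit, since the members were defined as probe sets. The level class was not used to pick a probe set per gene, since it can depend on the difference itself. The number of arrays limits precision, and intervals are 95% intervals of the fit.

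Members, pathway lists and marker lists were chosen with earlier results of these data known. Named genes were all members, up to 5 genes of each of the 4 pathway lists with the smallest p and every gene past the threshold, up to 2 genes of each of the 8 marker lists, and the 3 genes nearest to each called member probe set. As alternatives, each array was left out in turn, a replicate block was added, and the following were tried: arrays centred on their median or on 18 hybridization control probe sets, 1 mean per gene, a level class of 4 or above, an ordinary t statistic, a robust prior, probe sets designed against 1 transcript, a threshold of 0.10 and, added after the data were seen, only probe sets of 1 gene. A filter on spread was not run, because level classes could be read. Promoter sequences are from RefSeq, GRCm38.p6.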

Additional observations from a re-analysis of the deposited data

How the results depend on the processing

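With 2 arrays per diet the calls on the members sat close to the threshold. The number of member probe sets called was 5 of 21, and 7 after centring arrays on their median, 5 after centring on the hybridization controls (8 lower at an unadjusted p under 0.05, against 16), 8 at a level class of 4 or above, 8 at a threshold of 0.10, 8 among probe sets of 1 gene, 3 of 14 among probe sets designed against 1 transcript, and 0 with the replicate block or an ordinary t statistic, where 14 and 12 had an unadjusted p under 0.05. Without any 1 array it ranged from 0 to 0, with 11 to 15 at an unadjusted p under 0.05. Deviations of same-numbered arrays correlated at -0.099 across probe sets. With 4 arrays this cannot settle whether the replicate numbers pair the samples. The block moved the count over all probe sets to 79. That count was 676. It was 2261 after centring on these controls (704 lower and 1557 higher, against 564 and 112), 1314 at level 4 or above (924 lower and 390 higher), 1579 at a threshold of 0.10, 1 with an ordinary t statistic (6084 at an unadjusted p under 0.05) and 0 to 0 without any 1 array (4882 to 6513 at an unadjusted p under 0.05). The control probe sets themselves differed by -0.16 (SPI minus CAS), and centring on them moved the median of all probe sets to 0.18 and that of the members to -0.19. For the pathway lists together the count was 5 of 182, and 8 centred on those controls, 8 at level 4 or above, 3 with a robust prior, 9 at a threshold of 0.10, 0 with the replicate block (25 at an unadjusted p under 0.05) or an ordinary t statistic (31), and 0 to 0 without any 1 array. None of the 5 called member probe sets changed direction in 69 alternatives, of which 32 lost the call. Probe sets that turned direction had not been called: Nfkb2 1429128_x_at was at -0.022 without CAS replicate 1, -0.0058 without SPI replicate 1, at most 0.12 without 1 array and -0.13 as a gene mean, Rel at 0.024 without SPI replicate 1 and 0.10 with arrays centred on the controls, Birc3 1421392_a_at at 0.045 without CAS replicate 2, 0.035 without SPI replicate 2, -0.045 at the lowest without 1 array and 0.16 with that centring, and Birc3 1425223_at at 0.017 without CAS replicate 1, -0.29 at the lowest without 1 array and 0.019 with that centring. Centring on the controls takes their difference of -0.16 off the difference of every probe set alike. Some of the other alternatives hold fewer arrays or fewer probe sets. The cause of the other changes was not tested.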
